A study of Drosophila melanogaster with 2 samples.

Results

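Deep intronic peaks are sites where vvl-eGFP was found in the body of a gene, outside every annotated exon and more than 5000 bp from any transcript start. Of the 8309 peaks of the conservative list on the 6 chromosome arms, 1077 had such a summit, the position of highest signal that the authors gave for each peak. They made up 13.0% of the summits (95% Wilson interval 12.3 to 13.7), against 45.9% within 500 bp of a start, called promoter peaks here, and 23.3% in introns between these limits, called near intronic. Far intergenic summits, outside genes and more than 5000 bp from a start, made up 4.67%. Within that list, the members were chosen by position alone, not by signal or sequence. The list itself holds only peaks that passed the authors' threshold on these same samples.

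The assay was ChIP-seq, in which DNA bound by a protein is recovered with an antibody and sequenced, on whole embryos of Drosophila melanogaster aged 0 to 24 h. All embryos came from the strain vvl-GFP, which carries a transgene for a vvl-eGFP fusion, and an antibody to GFP was used. There were 2 biological replicates in 1 group, with no wild-type or other comparison group, and sex was not recorded. The labels do not say whether the fusion adds to or replaces the native gene, which promoter drives it, or in which cells it was present. A control listed there as possible was not used here. The replicates are separate samples of embryos from the same strain, and whether they were collected or processed apart in time is not stated. The depth of each sample is unknown, because the files are peak lists without read counts. Whole embryos mix all tissues, so a stronger signal per cell and more cells with a bound site cannot be told apart.

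Vvl, or ventral veins lacking, is a POU-domain transcription factor with a POU-specific domain and a homeodomain joined by a flexible linker. Together these domains read the octamer, a short word of which each domain contacts a part. Vvl is known to act in tracheal cells, midline glia and neurons of the embryo, and later in wing veins. Long introns of developmental genes are known to hold enhancers, stretches of DNA that factors bind to set when and where the gene is transcribed, often far from the start.

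The sequences around the summits of 7 deep intronic peaks show what the word searches looked at, from 100 bp before to 100 bp after the summit, in the Release 6 genome (dm6). The first 6 are those of the highest signal that hold the octamer, leaving out peaks on 1 chromosome arm whose sequences are not shown, and they are shown because the octamer is the known site of POU factors. Capitals mark the octamer, ATGCAAAT, or on the other strand ATTTGCAT. The host genes are Snoo, a relative of the Ski and Sno regulators of growth-factor signalling; Glut4EF, a transcription factor gene, with CG46467; CG43759; mew, an integrin alpha subunit; Raf, a kinase of receptor tyrosine kinase signalling; and scrib, a scaffold of epithelial polarity.
Snoo peak, chr2L:7925486-7925686, plus strand: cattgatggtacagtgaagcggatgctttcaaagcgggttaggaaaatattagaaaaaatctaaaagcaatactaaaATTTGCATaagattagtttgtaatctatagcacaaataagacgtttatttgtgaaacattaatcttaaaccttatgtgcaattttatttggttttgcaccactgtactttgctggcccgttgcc
Glut4EF peak, chr3R:9906097-9906297, plus strand: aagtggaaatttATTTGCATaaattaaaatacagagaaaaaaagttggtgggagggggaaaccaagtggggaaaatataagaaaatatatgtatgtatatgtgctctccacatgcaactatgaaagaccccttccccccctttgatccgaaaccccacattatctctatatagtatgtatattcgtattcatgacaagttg
CG43759 peak, chrX:18951554-18951754, plus strand: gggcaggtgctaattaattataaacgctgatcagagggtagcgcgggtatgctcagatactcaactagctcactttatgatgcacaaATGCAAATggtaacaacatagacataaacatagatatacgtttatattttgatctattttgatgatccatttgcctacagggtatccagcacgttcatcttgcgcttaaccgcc
mew peak, chrX:13251413-13251613, plus strand: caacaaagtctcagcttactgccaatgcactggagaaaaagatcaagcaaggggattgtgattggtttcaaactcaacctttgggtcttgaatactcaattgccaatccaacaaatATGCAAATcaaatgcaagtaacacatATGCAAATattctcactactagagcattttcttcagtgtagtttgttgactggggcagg
Raf peak, chrX:2302196-2302396, plus strand: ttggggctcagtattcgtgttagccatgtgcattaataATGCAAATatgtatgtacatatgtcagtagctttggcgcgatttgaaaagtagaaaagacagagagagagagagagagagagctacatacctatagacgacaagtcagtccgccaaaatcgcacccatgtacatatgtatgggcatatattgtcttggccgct
scrib peak, chr3R:26594234-26594434, plus strand: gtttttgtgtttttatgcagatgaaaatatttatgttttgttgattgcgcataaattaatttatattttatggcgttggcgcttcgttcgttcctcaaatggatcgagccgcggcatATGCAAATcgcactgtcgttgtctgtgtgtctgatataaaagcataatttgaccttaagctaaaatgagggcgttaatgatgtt

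The mew window holds the octamer at 2 places and the other 5 windows at 1. The peak of the highest signal among all deep intronic peaks, in an intron of CG32486, has no octamer within 100 bp of its summit and is shown for contrast.
CG32486 peak, chr3L:3060692-3060892, plus strand: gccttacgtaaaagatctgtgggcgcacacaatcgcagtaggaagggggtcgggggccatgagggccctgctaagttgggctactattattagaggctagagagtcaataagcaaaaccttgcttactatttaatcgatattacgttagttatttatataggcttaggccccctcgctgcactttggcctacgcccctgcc

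A further 3 windows, of 251 bases, are shown for a word that pointed towards the summit from both sides. They are those of the highest signal with this arrangement on the same arms, and they were chosen after the values were seen. Capitals mark CACTG to the left of the summit and its reverse complement CAGTG to the right, each 25 to 125 bp away. The hosts are Gug, a transcriptional corepressor; AdamTS-B, a metalloprotease gene; and Prp16, a splicing factor gene.
Gug peak, chr3L:8458196-8458446, plus strand: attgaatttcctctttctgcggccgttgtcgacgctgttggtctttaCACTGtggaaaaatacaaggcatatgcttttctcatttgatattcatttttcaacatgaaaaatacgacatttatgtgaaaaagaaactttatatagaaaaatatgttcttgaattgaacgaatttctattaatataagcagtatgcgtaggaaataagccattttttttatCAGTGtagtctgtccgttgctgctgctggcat
AdamTS-B peak, chrX:5705912-5706162, plus strand: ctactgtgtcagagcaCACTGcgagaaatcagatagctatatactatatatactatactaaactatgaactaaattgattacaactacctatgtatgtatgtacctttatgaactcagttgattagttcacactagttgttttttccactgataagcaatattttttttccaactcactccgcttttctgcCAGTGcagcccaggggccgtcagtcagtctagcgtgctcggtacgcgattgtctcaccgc
Prp16 peak, chrX:14218074-14218324, plus strand: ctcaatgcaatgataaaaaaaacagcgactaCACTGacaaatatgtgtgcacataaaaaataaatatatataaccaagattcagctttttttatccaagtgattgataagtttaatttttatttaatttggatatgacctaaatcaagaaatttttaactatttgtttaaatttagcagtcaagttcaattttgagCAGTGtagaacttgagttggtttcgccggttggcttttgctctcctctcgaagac

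Deep intronic summits lay from 5003 to 54001 bp from the nearest transcript start. Their median distance was 9224 bp, with quartiles at 6664 and 13477 bp. Of the 1077, 469 were more than 10000 bp from any start and 121 more than 20000 bp. Those more than 40000 bp away numbered 7, with summits in luna, hth, Snoo, CG43759 and mamo. The summit just inside the limit, at 5003 bp, had a signal of 332.6, and the one just outside, at 5000 bp, had 205.6. The nearest start belonged to a gene that holds the summit for 632 of the 1077, or 58.7%.

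Per length of sequence, deep introns held fewer summits than introns near a start and more than far intergenic sequence. The genome held 28.28 Mb of deep intronic sequence, with 38.1 summits per Mb (exact Poisson interval 35.8 to 40.4). Near intronic sequence had 78.8 summits per Mb in 24.55 Mb, so the deep intronic density was 0.483 of it (interval 0.448 to 0.521; exact conditional test of 2 rates, 2-sided, adjusted p = 4.928e-85). Far intergenic sequence had 19.3 summits per Mb in 20.1 Mb, so the deep intronic density was 1.97 times higher (1.76 to 2.22; exact conditional test, adjusted p = 3.505e-33). These intervals treat peaks as independent and cover counting error only, since peaks are not replicates of the experiment. Lengths here and below count every base of a class, including any on which reads cannot be placed. The part of such bases in the densities was not tested. 

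The fall with distance was gradual across the 5000 bp limit. Density was 112.7 summits per Mb at 500 to 1000 bp from a start, 57.4 at 4000 to 5000 bp and 61.3 at 5000 to 6000 bp. The intervals of the last 2 bins, 49.77 to 65.95 and 52.68 to 70.95, overlapped widely. Further in, density was 49.9 at 8000 to 10000 bp, 31.3 at 15000 to 20000 bp and 27.7 at 20000 to 40000 bp. Beyond 40000 bp only 7 summits lay in 4.54 Mb, or 1.54 per Mb (0.62 to 3.18).

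**Figure D1:**
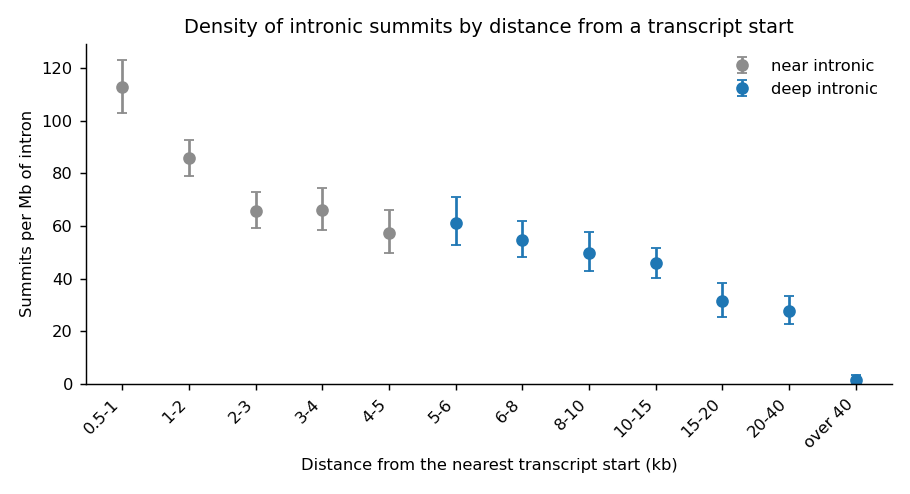
Summits per Mb of intronic sequence (y axis) by distance from the nearest transcript start in kb (x axis), with exact 95% Poisson intervals as bars. Grey points are near intronic and blue points deep intronic bins. Density goes from 112.7 per Mb next to a start to 61.3 just past 5 kb and 27.7 at 20 to 40 kb.

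Intron 1 of a host held more summits for its length than later introns. In the longest transcript of each protein-coding gene, deep intronic sequence of intron 1 had 367 summits in 5.57 Mb, or 66.0 per Mb (59.4 to 73.0). Later introns had 725 summits in 22.8 Mb, or 31.8 per Mb (29.5 to 34.2). The ratio was 2.08 (1.83 to 2.36; exact conditional test, 2-sided p = 1.386e-27). A summit in overlapping genes is counted once per gene here. Distance from a start was not held equal between intron 1 and later introns, and its part in the ratio was not tested.

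Across the arms, deep intronic density was 47.4 summits per Mb on 2L, 44.7 on X, 36.1 on 2R, 34.5 on 3L and 33.7 on 3R. The small, heterochromatin-rich chromosome 4 had 1 such summit in 0.259 Mb, or 3.86 per Mb (0.0978 to 21.5). As a share of an arm's summits, deep intronic ones were highest on X, at 17.6% (240 of 1363), and lowest among the large arms on 3L, at 9.77% (186 of 1904).

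Deep intronic peaks often lay near other summits, as did peaks of other kinds. Another summit lay within 2 kb of 46.7% of them, against 57.8% of near intronic, 42.5% of promoter and 39.7% of far intergenic summits. The nearest other summit of any kind was at a median of 2324 bp for deep intronic, 1550 bp for near intronic and 2757 bp for far intergenic summits. When deep intronic summits no more than 3000 bp apart were joined, 554 of the 1077 (51.4%) fell into 221 groups of 2 or more. The same joining is not given for other kinds of peak. Of these groups, 150 had 2 summits, 45 had 3, 15 had 4, 7 had 5 and 4 had 6. A pair of members share an interval, in sbb, with separate summits.

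In signal, deep intronic peaks reached the top of the list less often than near intronic and promoter peaks. Signal is the authors' value per peak, used here only to rank and describe peaks; whether it is relative to a control is not stated in the sources used here. The median signal of the 1077 was 131.5, with quartiles at 100.7 and 195.3, a lowest value of 2.71 and a highest of 1219, and 41 were under 50. Their intervals had a median width of 396 bp. Near intronic peaks had a median of 139.2 and reached 3185, far intergenic peaks 138.3 and 2196, and promoter peaks 146.5 and 3297. Of the deep intronic peaks, 217 (20.1%) were among the 25% of all peaks with the highest signal, against 24.6% of near intronic peaks (odds ratio 0.775, interval 0.646 to 0.929; Fisher's exact test, adjusted p = 0.00877). Of promoter peaks, 27.5% were in that group (odds ratio 0.664, 0.563 to 0.783; Fisher's exact test, adjusted p = 2.035e-06). For far intergenic peaks the share was 21.6%, and no difference from deep intronic peaks was detected (odds ratio 0.913, 0.688 to 1.21; Fisher's exact test, adjusted p = 0.558).

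The strongest deep intronic peaks had high signals in both replicates, from whose data the series list was itself made. The first, in intron 1 of CG32486 at chr3L:3060646-3060952, had a signal of 1219 in the series list, with 515.1 and 716.4 in the ranked lists of replicates 1 and 2. It ranked 69 among all peaks and was 5713 bp from the nearest start, that of CG16753. The second, at chr2R:10219900-10220240, lies in the overlapping genes Hr3, CG12912 and CG46321 and had a signal of 1179, with 645.9 and 538.2 in the replicates. Hr3 encodes an orphan nuclear receptor that acts in the response to ecdysone, the moulting hormone. The third and the ninth, at chr2R:18338324-18338642 and chr2R:18335076-18335430, lie 18801 and 22039 bp from a start in intron 2 of sbb, a gene for a nuclear co-repressor also called brakeless. Their signals were 1048 (644.7 and 404.9 in replicates 1 and 2) and 784.1 (503.2 and 283.4).

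JIL-1, which encodes a kinase of histone H3, held a peak in its intron 4, at chr3L:11084637-11084943, with a signal of 1002, and 603.6 and 393.9 in the replicates. Gug, at chr3L:8458176-8458476 in intron 2, had 935.7, with 524.2 and 431.7. In fz, a receptor of the Wnt family that also sets planar cell polarity, a peak at chr3L:14303912-14304212, in intron 1 and 22187 bp from a start, had 873.3, with 544.9 and 332.5. In intron 2 of Raf, at chrX:2300564-2300850, the signal was 812.6, with 380.4 and 433.2. In intron 1 of CG6959, at chr3R:11849658-11850089 and 19607 bp from a start, it was 809.2, with 497.7 and 281.5. The higher replicate was replicate 1 in all of these except CG32486 and Raf. Hr4, another nuclear receptor of the ecdysone response, held a peak at chrX:1947600-1947882 with 744.6, with 430.9 and 314.0. None of these 10 peaks held the octamer within 100 bp of its summit, which 9.01% of all members did, so 10 peaks are few to judge by. All overlapped a peak in both replicates' lists.

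Of the 1077 deep intronic peaks, 609 (56.5%, interval 53.6 to 59.5) overlapped a peak by 1 bp or more in both replicates' own lists, against 62.4% of all 8309 peaks. In all, 878 (81.5%) were found in replicate 1's list and 720 (66.9%) in replicate 2's. Those found in replicate 1 and not 2 numbered 269, in 2 and not 1 111, and in neither 88. The share in both lists was 66.5% for promoter peaks, higher than for deep intronic ones (odds ratio 0.657, 0.572 to 0.754; Fisher's exact test, adjusted p = 9.889e-09). It was 59.98% for near intronic peaks (odds ratio 0.868, 0.747 to 1.01; Fisher's exact test, adjusted p = 0.104) and 58.2% for far intergenic peaks (odds ratio 0.933, 0.737 to 1.18; Fisher's exact test, adjusted p = 0.591), and neither of these passed. With the list of replicate 2 alone, the share was lower than the 71.1% of near intronic peaks (odds ratio 0.82, 0.698 to 0.963; Fisher's exact test, adjusted p = 0.0248) and the 78.2% of promoter peaks (odds ratio 0.562, 0.484 to 0.652; Fisher's exact test, adjusted p = 2.311e-13), but matching summits within 100 bp in place of overlaps ended the first call (odds ratio 0.859, adjusted p = 0.086 by the same exact test). With that of replicate 1, no difference from these passed (odds ratios 1.06 and 0.982; Fisher's exact test, adjusted p = 0.842 and 0.858). The share in both lists went with signal, from 21.9% of the 270 weakest members to 95.9% of the 269 strongest. That signal is from the series list, which was made from both replicates, so such a trend was built in and is no separate finding. Replicate 2's list was the smaller, with 7093 peaks on the 6 arms against 9050, and the part of list size in these shares was not tested.

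In the ranked lists, which also hold weaker peaks, 944 of the 1077 had a summit within 100 bp in both replicates. The rank correlation of their signals was 0.54. That is a description across peaks, which all passed selection on the same 2 samples. The median signal was 83.3 in replicate 1 and 52.8 in replicate 2, and 85.1% of the 944 were higher in replicate 1. The lists are not known to share a scale, so the last 2 values do not compare binding between samples.

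**Figure D2:**
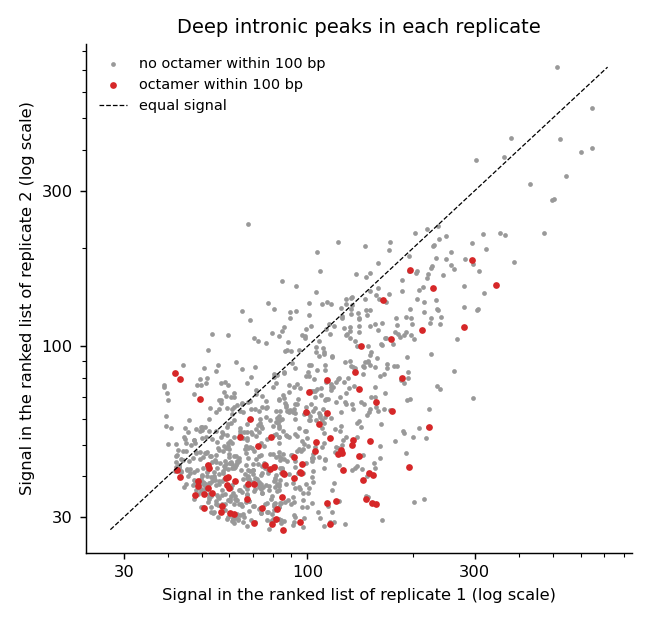
Signal of each deep intronic peak in the ranked list of replicate 1 (x axis) and of replicate 2 (y axis), both on log scales, for the 944 with a summit within 100 bp in both. Red points hold the octamer within 100 bp of the summit, grey points do not, and the dashed line marks equal signal. Most points, 85.1%, lie below that line.

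The octamer was more frequent at deep intronic summits than at promoters, and no difference from near intronic or far intergenic summits passed. It stood within 100 bp of 97 of the 1077 summits (9.01%, interval 7.44 to 10.9), against 6.68% of all 8309 peaks. Flanking windows centred 1000 bp to each side, outside peaks and exons, held it in 86 of 1851 cases (4.65%; odds ratio 2.03, 1.5 to 2.74; Fisher's exact test, p adjusted over 18 words = 9.568e-05). Flanks came from the same loci as the summits, and those of neighbouring summits can overlap. The tests of words against flanks, here and below, took all windows as independent. A single octamer was present at 88 of the 97 and 2 octamers at 9. The share was 8.22% at near intronic summits (odds ratio of deep against near 1.10, 0.848 to 1.44; Fisher's exact test, adjusted p = 0.944) and 9.28% at far intergenic ones (odds ratio 0.968, 0.648 to 1.45; Fisher's exact test, adjusted p = 1). With both kinds limited to over 10000 bp from a start the second odds ratio was 2.00 and did not pass (adjusted p = 0.402 by the same exact test). At promoters it was 3.96% (odds ratio of deep against promoter 2.40, 1.84 to 3.13; Fisher's exact test, adjusted p = 5.981e-09). Set against each kind's own flanks, the odds ratio at deep intronic summits was 2.38 times that at promoters (95% interval 1.61 to 3.52).

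The enrichment of the octamer over flanks had an odds ratio of 3.16 among deep intronic peaks of replicate 1's list and 1.68 among those of replicate 2's, and the difference was not tested. It passed in both (Fisher's exact test, adjusted p = 4.746e-15 and 0.038). Among the 1077 members, those with the octamer were found in the list of replicate 2 in 52.6% of cases (51 of 97), against 68.3% of those without it (669 of 980). The odds ratio was 0.515 (0.338 to 0.785; Fisher's exact test, p adjusted over 10 comparisons chosen after the data were seen = 0.0222). In the list of replicate 1 the shares were 81.4% and 81.5% (odds ratio 0.994, 0.581 to 1.70). By signal, 19 of the 269 strongest members had it (7.06%), 29 of the next 269 (10.8%), 23 of the next 269 (8.55%) and 26 of the 270 weakest (9.63%), with overlapping Wilson intervals.

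With distance from a start, the share of summits with the octamer was 7.78% at 5000 to 6000 bp (14 of 180), 9.49% at 10000 to 15000 bp (24 of 253) and 12.3% at 20000 to 40000 bp (14 of 114). The Wilson intervals of these 3 shares, 4.69 to 12.6, 6.46 to 13.7 and 7.46 to 19.6, overlapped.

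Other words of POU factors were also more frequent at deep intronic summits than in their flanks. The octamer variant ATGCTAAT was at 3.53% of summits and 1.62% of flanks (odds ratio 2.22, 1.37 to 3.60; Fisher's exact test, adjusted p = 0.006). The palindrome ATGCATAT was at 3.25% and 1.41% (odds ratio 2.36, 1.41 to 3.94; Fisher's exact test, adjusted p = 0.006). TGCAAAT, which lacks the first base of the octamer, was at 11.9% and 10.3% and did not pass (odds ratio 1.18, 0.93 to 1.5; adjusted p = 0.385 by Fisher's exact test). Among peaks of replicate 1's list it passed (odds ratio 1.5, adjusted p = 0.00112 by the same exact test). The 2 composition controls, the octamer's letters reversed or shuffled, were at only 6 and 12 of the 1077 summits. Their odds ratios were 1.29 (0.447 to 3.73) and 1.48 (0.681 to 3.21), with adjusted p of 0.828 and 0.568 (Fisher's exact test). Both intervals held the octamer's odds ratio of 2.03, and the part of base composition was not tested. Among peaks of replicate 2's list the odds ratio of ATGCTAAT was 1.38 and did not pass. Neither it nor ATGCATAT passed among the 50% of peaks with the higher signal (odds ratio 1.98 for each, adjusted p = 0.234) or over 10000 bp from a start (1.79 and 2.7, adjusted p = 0.339 and 0.1475 by Fisher's exact test), where fewer summits were tested.

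Of the words of other factors, GAGAGAG alone passed against flanks in the windows and flanks used here. This word of the GAGA factor, a protein that opens chromatin, was at 5.66% of deep intronic summits and 3.03% of flanks (odds ratio 1.92, 1.33 to 2.79; Fisher's exact test, adjusted p = 0.00522), but among peaks of replicate 2's list its odds ratio was 1.18 and did not pass, nor did it among higher-signal peaks, over 10000 bp from a start or within 50 bp of summits. The words of DREF (TATCGATA, the DRE) and of M1BP (GGTCACAC), both factors of housekeeping promoters, were at 4 and 3 of the 1077 summits, or 0.371% and 0.279%. At promoter summits they were at 7.76% and 6.06% (Fisher's exact test, adjusted p = 9.205e-26 and 2.730e-20). CAGCTG, an E-box for basic helix-loop-helix factors, was at 5.48% of deep intronic and 13.7% of promoter summits (odds ratio 0.365, 0.276 to 0.481; Fisher's exact test, adjusted p = 4.650e-14). No word differed in share between deep intronic and near intronic or far intergenic summits after adjustment, where the lowest of the adjusted p was 0.259 (Fisher's exact test). The remaining 8 words, for homeodomain, TATA-binding, Twist, Zelda, Sox, GATA, bHLH-PAS and Grainyhead proteins, had odds ratios to flanks from 0.786 to 2.09, and none passed, although the Sox word ACAATG did among peaks of replicate 2's list (odds ratio 0.673, adjusted p = 0.038 by the same exact test). The TATA word, TATAAAAG, passed within 50 bp of summits, where its odds ratio was 4.46 (adjusted p = 0.00505 by the same exact test), against 2.09 within 100 bp. CAGCTG was less frequent than in flanks 2000 bp away (odds ratio 0.609, adjusted p = 0.00735 by the same exact test).

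**Figure D3:**
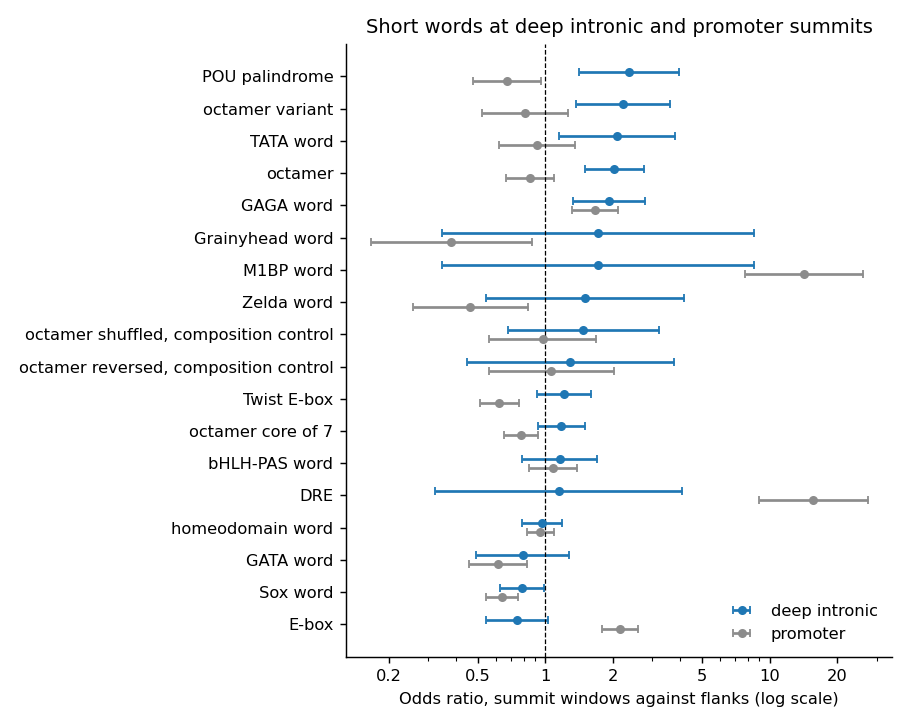
Odds ratios of the 18 fixed words in summit windows against flanks (x axis, log scale) at deep intronic summits in blue and promoter summits in grey, with 95% intervals as bars and words listed by name on the y axis. The octamer stands at 2.03 at deep intronic summits, with its interval above 1, and at 0.854 at promoters.

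Among all strand-merged words of 6 letters, 81 (3.89%) were more frequent at deep intronic summits than in flanks and 64 (3.08%) less frequent. A call needed an adjusted p below 0.05 together with an odds ratio above 1.5 for higher words, or below the inverse of 1.5 for lower ones. The lowest p belonged to ACACTG, at 15.04% of summits and 5.94% of flanks (odds ratio 2.80, 2.17 to 3.62; Fisher's exact test, adjusted p = 1.937e-12). AAATAT followed, at 46.6% and 31.8% (odds ratio 1.88, 1.61 to 2.19). Of the 8 words that hold CACTG on either strand, 7 were among the 81. None of the 81 lay within the octamer. Of the 36 words made of A and T alone, 8 were among the 81 and 0 among the 64. The less frequent words included GCAGGA, at 2.60% of summits and 7.62% of flanks (odds ratio 0.324, 0.214 to 0.489), and 21 of the 48 words that hold AGGA on either strand. The windows at deep intronic summits had a median GC content of 37.8%, against 40.3% in their flanks, and the part of base composition in these differences was not tested.

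The position of the octamer was near the summit, without a preferred direction. In bins of 25 bp, its frequency on both strands together was highest from 25 to 50 bp right of the summit, at 0.891 per kb, and was 0.706 and 0.631 in the bins next to the summit on its left and right. More than 100 bp from the summit it was between 0.0371 and 0.446 per kb. At 25 to 125 bp from the summit, it pointed towards the summit alone in 29 members and away from it alone in 31 (exact binomial test, 2-sided p = 0.897).

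ACACTG had another arrangement, found after the data were seen and tested on the same peaks. On the forward strand it was most frequent from 100 to 75 bp left of the summit, at 1.37 per kb (37 matches), and on the reverse strand from 75 to 100 bp right of it, at 1.19 per kb (32 matches). In the same bins the other strand had 0.371 and 0.186 per kb, and at the summit itself both strands had 0.223 or less. At 25 to 125 bp it pointed towards the summit alone in 142 members and away alone in 38 (exact binomial test, 2-sided, adjusted p = 1.271e-12). In 18 members it pointed inward from both sides, and outward from both sides in 0. The shorter CACTG, marked in the windows shown above, was less directed, towards the summit alone in 260 members and away alone in 204 (exact binomial test, 2-sided p = 0.0106), inward from both sides in 81 and outward from both in 38. Of the words of 6 letters tested for direction, 74 (3.67%) passed, led by TACACT, towards the summit in 143 members and away in 32, and GAGAAA, in 201 and 67. Only 5 of the 74 held CACTG pointing towards the summit. Others held its reverse complement CAGTG in that direction: ACAGTG, in 133 members and away in 63, and CAGTGG, in 131 and 62. Words with CACTG thus did not all point the same way. Words rich in A passed too, among them GAAAAA, in 327 and 162, and AAAAAA, in 350 and 188. The list of replicate 1 alone gave 40 such words and that of replicate 2 alone 79. ACACTG kept its direction in both lists, with 119 members towards and 36 away in that of replicate 1 and 121 and 26 in that of replicate 2.

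ACACTG had the same direction at other summits away from starts. Peaks with it towards the summit alone against away alone numbered 226 and 77 at near intronic, 57 and 10 at far intergenic, and 371 and 307 at promoter summits. Of the 74 words that passed at deep intronic summits, 54 were among the 120 that passed at near intronic summits, 26 among the 28 at far intergenic summits and 22 among the 93 at promoters. The share of all words that passed was 5.95%, 1.39% and 4.61% there, at sites that differ in number. Within deep intronic peaks, ACACTG pointing inward was rarer where the octamer was present, at 5 of 97 (5.15%) against 139 of 980 (14.2%; odds ratio 0.329, 0.131 to 0.823; Fisher's exact test, adjusted p = 0.0381). Members with it were found in the list of replicate 2 in 77.1% of cases (111 of 144), against 65.3% of the others (609 of 933; odds ratio 1.79, 1.19 to 2.70; Fisher's exact test, adjusted p = 0.0282). In the list of replicate 1 the shares were 78.5% and 82.0% (odds ratio 0.8, 0.52 to 1.23).

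**Figure D4:**
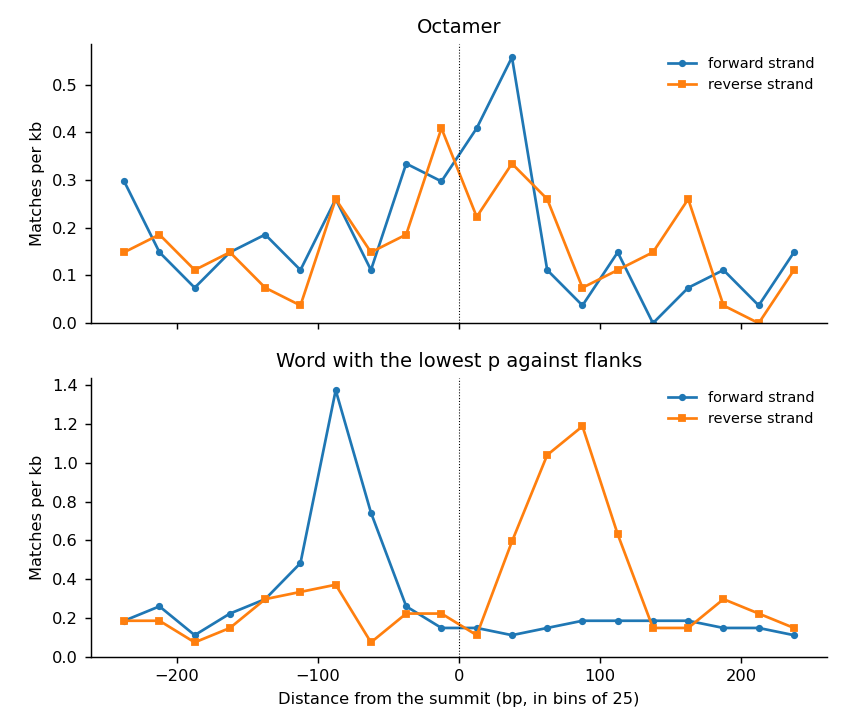
Matches per kb of deep intronic window (y axis) by distance from the summit in bins of 25 bp (x axis), on the forward strand in blue and the reverse strand in orange, for the octamer (top) and ACACTG (bottom). With both strands together, the octamer is most frequent from 25 to 50 bp right of the summit, but its highest bin differs in each replicate's list. ACACTG on the forward strand reaches 1.37 per kb on the left and on the reverse strand 1.19 per kb on the right.

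Deep intronic summits were spread over many genes. Of 1760 protein-coding genes with deep intronic sequence, 429 (24.4%) held 1 or more. These hosts had a median of 15.8 kb of such sequence and the other genes 3.66 kb. A single summit was found in 183 of the 429 (42.7%), 5 or more in 62 and 10 or more in 10. Another 23 members lay only in noncoding genes, and 73 lay in 2 or more overlapping genes. The median length of the introns that held them was 19.4 kb.

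The 10 genes with the most deep intronic summits held 112 of the 1077 (10.4%). Octamer counts per gene are small and stand beside 9.01% over all members. kirre, an adhesion molecule of muscle founder cells, had 19 in 226.3 kb of deep intronic sequence, with signals from 93.5 to 315.9 and a median of 151.1. Of these, 14 were found in both replicates' lists, and 0 held the octamer. hth, a TALE homeobox gene whose protein works with Hox factors, had 16, with signals from 16.0 to 359.8 and a median of 116.4. Its peaks were found in the list of replicate 1 in 13 cases and in that of replicate 2 in 5, and 2 held the octamer. sbb had 14 in 35.6 kb, or 393.7 per Mb, with signals from 77.6 to 1048, of which 13 were in both lists and 3 held the octamer.

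The Wnt receptor genes fz, with 11 summits, and fz2, with 10, were among these. The signals in fz ran from 5.83 to 873.3, and 5 of its 11 were in both lists. Those in fz2 ran from 12.4 to 255.7, with 4 of 10 in both. pyd, the fly relative of the junction protein ZO-1, had 11 (40.3 to 327.0), with 8 in both lists. pigs, a Gas2-related gene of the cytoskeleton, had 11 in 27.2 kb, or 405.1 per Mb, with 4 in both. cv-c had 10 (3.41 to 239.5), with 6 in both. Glut4EF and the overlapping CG46467 shared the same 10 peaks, 3 of them with the octamer and 5 in both lists.

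By gene list, density was set beside that of all deep intronic sequence, 38.1 per Mb, and the share of hosts beside the 24.4% of all 1760 genes. The share of hosts takes no account of length. Hosts had a median of 15.8 kb of deep intronic sequence and other genes 3.66 kb. The part of length in these shares was not tested. Octamer counts per list, which are small, stand beside 9.01% of all members. The median gene of all 1760 held 0 summits. The lists were chosen with earlier results known and get no test, and their intervals are exact Poisson ones. Those intervals treat summits as independent, although 51.4% of members fell into groups, and are not adjusted over the 22 lists. Whether an interval holds 38.1 is therefore a description and decides nothing. The Dpp pathway signals through BMP-type receptors. Of the 15 genes listed for it, 7 had deep intronic sequence and 6 of these were hosts, with 26 summits at 280.2 per Mb (183.0 to 410.5). The co-repressor gene sbb held 14 of the 26. Beside it, tkv, the type I receptor of Dpp, had 4 summits and sog, an extracellular BMP antagonist, 3. The best in tkv had a signal of 156.2, with 102.0 and 61.3 in the replicates, and the best in sog 225.4, with 89.5 and 121.9. Of the 26, 23 were in both replicates' lists. The median gene of the list with deep intronic sequence held 2.

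Epithelial polarity genes had 43 summits in 8 of 13 genes, at 185.0 per Mb (133.9 to 249.2), with pyd, cv-c and Nrg, a neuroglian adhesion protein with 6, at the head. Among tracheal genes, 8 of 13 were hosts, with 27 summits at 163.4 per Mb (107.7 to 237.8). They were led by pyd, tkv and hh, the Hedgehog ligand with 3 summits, and 1 of the 27 held the octamer. Wnt pathway genes had 28 summits in 6 of 8 genes, at 138.7 per Mb (92.2 to 200.5), of which fz held 11, fz2 10 and nkd, a feedback inhibitor of the pathway, 3. Wing vein and Iroquois genes had 16 in 7 of 10, at 122.2 per Mb (69.9 to 198.5), with ab, a BTB zinc-finger gene, at 6, sog at 3 and knrl, a nuclear receptor gene, at 2. The median gene with deep intronic sequence held 2 in the epithelial polarity and tracheal lists, 1.5 in the Wnt list and 1 in the wing vein list. Some genes stand in more than 1 list, among them pyd, tkv and sog, so the lists are not independent.

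Genes of the ecdysone response held 29 summits in 6 of 11 genes, at 101.0 per Mb (67.6 to 145.0). ftz-f1, a nuclear receptor, had 9 with signals from 30.7 to 277.8, Eip75B, a nuclear receptor induced by ecdysone, 7 from 104.8 to 296.8, and Hr4 6 from 77.7 to 744.6. Of the 29, 0 held the octamer, against 9.01% of all members. EcR, the ecdysone receptor, had 2, of which 1 was in both lists. Hox and TALE genes had 26 in 3 of 9 genes, at 96.5 per Mb (63.0 to 141.4): beside the 16 of hth, Antp had 7, with 6 in both lists, and Ubx 3. The other homeobox genes had 17 in 8 of 22, at 77.2 per Mb (44.9 to 123.5), led by Awh with 5, ct with 4 and Lim1 with 3.

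EGF receptor and FGF pathway genes had 13 summits in 8 of 11 genes, at 98.3 per Mb (52.4 to 168.1). S, which helps to process the EGF receptor's ligands, ths and bnl, both FGF ligands, had 2 each, and the best in S had a signal of 377.8, with 218.9 and 162.4 in the replicates. Hedgehog pathway genes had 9 in 6 of 7, at 92.1 per Mb (42.1 to 174.9), among them 3 in hh, 2 in dally and 1 in dlp, both glypicans that carry ligands at the cell surface. Muscle genes had 27 in 7 of 17, at 67.2 per Mb (44.3 to 97.8), 19 of them in kirre. Its paralogue rst had 2, which kirre also holds because the annotated genes overlap, and how, an RNA-binding protein gene, 2. Psc was the only host of 5 Polycomb group genes, with 1 summit of signal 451.8, and 237.9 and 213.8 in the replicates.

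The midline and glial, bHLH-PAS, Notch pathway, neuroblast temporal, and planar polarity and cadherin lists had densities whose intervals held that of all deep introns. Midline and glial genes had 10 summits in 4 of 8 genes, at 61.7 per Mb (29.6 to 113.5), with 5 in NetA and 1 in NetB, the Netrin guidance cues, and 3 in fra, their receptor. The best in NetA had a signal of 406.3, with 279.0 and 132.2 in the replicates. The bHLH-PAS genes had 8 in 3 of 6, at 64.5 per Mb (27.8 to 127.0), in tai, a steroid receptor coactivator gene, dysf, a gene of tracheal fusion cells, and sima, a hypoxia-response gene. Notch pathway genes had 8 in 3 of 8, at 56.8 per Mb (24.5 to 111.8), of which the receptor gene N had 4, mam, a coactivator, 3 and neur, a ubiquitin ligase, 1. The genes listed as neuroblast temporal had 8 in 3 of 8, at 52.7 per Mb (22.8 to 103.9), of which bab2 had 4, bab1 3 and chinmo 1. Planar polarity and cadherin genes had 19 in 4 of 11, at 52.5 per Mb (31.6 to 81.9), 11 of them in fz and 3 each in CadN and ds, both cadherins, and 4 of the 19 held the octamer.

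Axon guidance genes had 25 summits in 10 of 21 genes, at 32.3 per Mb (20.9 to 47.7), led by Fas3, an adhesion molecule, with 7, Ten-a, a teneurin, with 5 and Sema1a, a semaphorin, with 3. Synapse and channel genes were lowest among the lists with any summit. They had 7 summits in 0.593 Mb of deep intronic sequence, at 11.8 per Mb (4.75 to 24.3), against 38.1 over all deep introns. Only 2 of 22 genes (9.09%) were hosts. These were Ca-beta, a calcium channel subunit, with 4, and dnc, a cAMP phosphodiesterase, with 3. Of the 7, 1 was in both replicates' lists.

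**Figure D5:**
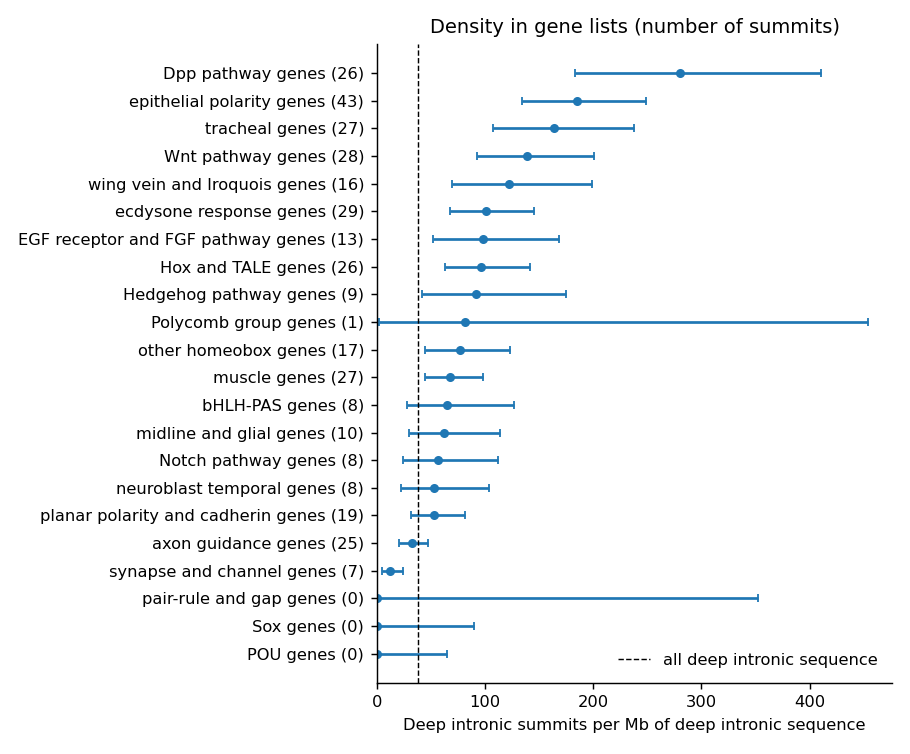
Deep intronic summits per Mb of deep intronic sequence (x axis) for the 22 gene lists (y axis, with the number of summits), with exact 95% Poisson intervals as bars and the density of all deep intronic sequence, 38.1 per Mb, as a dashed line. Dpp pathway genes, with 14 of their 26 summits in sbb, stand at 280.2 per Mb, and synapse and channel genes at 11.8.

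The POU genes held no deep intronic summit. vvl itself has no deep intronic sequence. pdm3 (29.1 kb), nub (14.7 kb), acj6 (10.3 kb) and pdm2 (2.46 kb) had 0 summits in 0.0566 Mb together. The upper bound of the exact Poisson interval was 65.2 per Mb. That interval holds the 38.1 of all deep introns and, as for the other lists, decides nothing. The same holds for the 4 Sox genes with such sequence, with 0 summits and an upper bound of 90.1 per Mb, and for the pair-rule and gap genes, of which 1 of 14 had deep intronic sequence.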

How the data were processed

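Members and gene lists were chosen with earlier results of these data known. ChIP-seq peaks of 2 samples were used as deposited, in coordinates of dm6. Each peak has a signal and a score, both assigned by the authors, and the deposited ranked lists also give each peak's irreproducible discovery rate (IDR) as −log10. The aligner and the program that called peaks were not given in the sources used here. Without read counts, depth and the precision it gives are unknown. Of the peaks with an IDR of 0.01 or less in the series' ranked list, 184, of which 9 are deep intronic, are outside the conservative list and were not analysed here. The authors' series lists use both replicates, per the text files with them, and each replicate has lists of its own. Fragments after sonication were 200 to 800 bp long, per the labels, which limits how finely a summit places a site.

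Summits were placed with Ensembl release 115 genes, without transposable elements, and the Release 6 genome, whose arm lengths fit the files. Within 100 bp of each summit, both strands were searched for words. Shares were compared with 2-sided Fisher's exact tests and densities with exact conditional tests (Python 3.11.15, numpy 2.4.6, pandas 2.3.3, scipy 1.17.1; plots with matplotlib 3.10.9), with Benjamini-Hochberg adjustment over 18 words, over 18 words and 3 other kinds of site, over the kinds of site, or over all words of 6 letters. Intervals are at 95%. The word test was checked on simulated data. Named genes are the hosts of the 10 highest-signal members, the 10 genes with the most members, up to 3 per gene list and the POU genes. Genes named beyond this, EcR, those with a member over 40000 bp from a start and the hosts of printed sequences with CACTG, were chosen after their values were seen. The direction tests and the comparisons of members with and without a word were also added then. Alternatives were other peak lists, distances, windows, flanks and overlaps.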

Additional observations from a re-analysis of the deposited data

How the results depend on the processing

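No paired analysis was possible because there is only 1 group. Alternatives were the broader list, each replicate's list, the 50% of peaks with the higher signal, a limit of 10000 bp, windows of 50 bp, flanks 2000 bp away and other overlaps; the direction tests and their alternatives were chosen after seeing the data. Density ratios, the octamer against flanks and promoters, and the direction of ACACTG kept their direction and call under all these alternatives that were run. By signal, which is not among them, ACACTG pointed towards the summit alone in 48 of the 269 strongest members and away alone in 8. Among the 270 weakest the counts were 27 and 14 and did not pass (exact binomial test, 2-sided p = 0.0596). The number of deep intronic peaks was 1620 (13.9% of summits) in the broader list, 473 (11.4%) among higher-signal peaks and 469 (5.64%) over 10000 bp, where host genes fell to 201. The share was 11.8 to 13.7% in the replicates' lists. Words of 6 letters above flanks numbered 46 in the broader list and 37 over 10000 bp, those below 24 among higher-signal peaks and 11 over 10000 bp, and directed words 36 and 24 in the same 2 settings. Directed words numbered 40 to 79 in the replicates' lists.

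At 50% overlap, the share in both replicates passed against near intronic peaks (odds ratio 0.85; adjusted p = 0.0498 by Fisher's exact test). The octamer against near intronic summits kept its direction; other comparisons of the octamer that did not pass changed direction in some settings, and none passed in any. Over near intronic summits, the ratio of odds ratios (0.885 in the settings of the report) was 1.04 to 1.17 in the replicates' lists, 1.04 over 10000 bp, 1.14 in windows of 50 bp and 1.18 with flanks 2000 bp away. Against far intergenic summits, the octamer's odds ratio (0.968) was 0.858 to 1.15 in the replicates' lists, 1.03 among higher-signal peaks, 2.00 over 10000 bp and 1.07 in windows of 50 bp, and the ratio of odds ratios (0.903) was 0.821 to 1.52, 1.18 and 2.32 in the first 3. The high-signal odds ratio against far intergenic peaks was 0.962 to 1.06 in the replicates' lists. In the list of replicate 1, deep against near intronic peaks had an odds ratio of 0.991 with summits within 100 bp. Among words that did not pass, odds ratios to flanks changed sides of 1 for GGTCACAC (0.672 in replicate 1's list), CAGGTAG (0.89 there, 0.738 among higher-signal peaks, 0.737 with flanks 2000 bp away), TAAACGTA (0.764 in replicate 2's list, 0.758 over 10000 bp, 0.844 with far flanks), TATCGATA (0.197 in replicate 2's list, 0.574 among higher-signal peaks), AGATAAG (1.12 and, with far flanks, 1.00), TACGTG (0.991, 0.508 among higher-signal peaks, 0.987 with far flanks), AACCGGTT (0.445, 0.344 among higher-signal peaks, 0.883 in windows of 50 bp) and TAATTA (1.14 among higher-signal peaks, 1.12 in windows of 50 bp, 1.04 with far flanks). For single words and other comparisons that are not main results, 10 calls were lost, 5 were gained, and 99 values kept their direction and their side of the threshold; the GAGA word passed neither in replicate 2's list, among higher-signal peaks, over 10000 bp nor in windows of 50 bp. The cause was not tested. Peaks are not replicates, with 2 samples and unknown depth, and intervals cover counting error only.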
